A study of Mus musculus with 16 samples.

Results

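Solute carriers are membrane proteins that move small molecules in and out of cells and organelles, and the 129 described here belong to 21 of the families numbered 1 to 22. They were picked by name and by signal: a gene counts if its symbol is Slc, a family number from 1 to 22, the letter a and a member number, leaving out Slc12a1 and Slc12a3, and if a probe for it lies well above background on all 16 kidney arrays. The array carries 171 genes with such names among its 56605 probes, and 129 of them passed, out of 13848 named genes of any kind that did. Of the 42 that did not, 15 were well above background on 0 arrays and 27 on 1 to 15 arrays. Family 22, the organic ion carriers, gives 20 members, family 16 gives 13, families 6 and 7 give 10 each, and no gene of family 21 bears such a name. Each array holds the RNA of the whole kidney of 1 mouse aged 6 months, none pooled, with 4 mice of each of 4 genotypes, so the number of arrays limits how small a difference can be seen.

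The wild-type mice were C57BL/6 animals bought from a national center for laboratory animals, while the Fcgr2b-/- mice, which develop lupus, and the double-deficient mice, which lack Fcgr2b and carry Sting gt/gt as well, were both of mixed 129 and C57BL/6 descent. Sting gt/gt mice carry the Goldenticket allele, which leaves Sting without function, on C57BL/6. The labels name only the Fcgr2b deletion for the lupus kidneys, while the published heat map heads those columns Sting wt/gt. Strain and Fcgr2b genotype run together and cannot be told apart where Fcgr2b-/- or double-deficient kidneys are compared with wild-type or Sting gt/gt kidneys.

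In the kidney most of these carriers work in the tubule, where the early proximal segment recovers glucose, amino acids, bicarbonate and phosphate from the filtrate, the late proximal segment recovers what is left and secretes organic anions, and the distal segments adjust ions and urea. Others feed every cell with nutrients, and a few serve macrophages and related cells, in which they move metals, peptides and sugars across the membranes of phagosomes and lysosomes. A whole kidney mixes all of these cells, so a lower reading of a carrier can come from fewer cells that make it or from less RNA in each of them, and these cannot be told apart here.

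For the kidney label, 9 of 9 kidney identity genes, with Umod the brightest and Nphs1, Aqp2 and Slc12a1 among them, were well above background on all 16 arrays. Their median log2 change from wild-type to Fcgr2b-/- kidneys was -0.04, and limma called 0 of them, with 2 lower at an unadjusted p under 0.05 (0.71% of all probes). The targeted gene itself, Fcgr2b, read 2.13, 1.91, 1.60 and 1.14 in wild-type, 0.70, 0.02, 0.06 and 0.19 in Fcgr2b-/-, -0.04, 0.50, -0.40 and -0.24 in double-deficient and 1.54, 1.05, 0.70 and -0.19 in Sting gt/gt kidneys, as log2 signal minus the 75th percentile of the array. Every Fcgr2b-/- and double-deficient value lay below every wild-type value, while Sting gt/gt replicate 4 fell among the double-deficient values. Markers of neighbouring tissue varied between mice. The mean of 8 fat cell markers, Fabp4 the brightest, taken against the wild-type mean, was 3.21, -0.63, -1.19 and -1.39 in wild-type, 2.67, -0.88, -1.47 and -1.07 in Fcgr2b-/-, -0.58, -1.94, 1.01 and -0.12 in double-deficient and 1.82, 0.19, 0.56 and -1.11 in Sting gt/gt kidneys. Wild-type replicate 1 and Fcgr2b-/- replicate 1 were the highest of their groups in these markers, and all 4 groups overlapped. Of 5 adrenal markers, 3 could be tested, with a median of -0.02 from wild-type to Fcgr2b-/- kidneys, and of 8 red cell markers 5 could be tested, with a median of -0.26; limma called 0 of either, and 0 had an unadjusted p under 0.05 in that comparison.

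Over the probes tested, the median correlation with the other arrays was 0.914 for Fcgr2b-/- replicate 1, 0.923 for Sting gt/gt replicate 4, 0.940 for wild-type replicate 1 and 0.946 for double-deficient replicate 2, while the remaining 12 lay between 0.957 and 0.973. These 4 arrays stood apart. The carriers as a set were low on 3 of these arrays. The median of the 129 carriers against the wild-type mean was -0.36, 0.15, 0.17 and 0.10 in wild-type, -0.83, 0.25, 0.03 and -0.22 in Fcgr2b-/-, 0.15, -0.31, 0.11 and 0.09 in double-deficient and -0.39, 0.08, -0.06 and -0.05 in Sting gt/gt kidneys. Replicate 1 was the lowest of its group in the wild-type, Fcgr2b-/- and Sting gt/gt mice and replicate 2 in the double-deficient mice, and the groups overlapped. On Fcgr2b-/- replicate 1, 55 of the 129 carriers lay at least 2-fold below the wild-type mean, against 5, 5 and 10 on the other mice of that genotype, 29, 4, 5 and 5 in wild-type, 3, 24, 6 and 6 in double-deficient and 16, 5, 16 and 33 in Sting gt/gt kidneys. Of all probes tested, 18.0% lay at least 2-fold below the wild-type mean on that array, against 7.73%, 2.48% and 3.64% on the others of its genotype, 8.71%, 10.6%, 2.46% and 1.84% in wild-type, 3.72%, 6.66%, 1.76% and 3.11% in double-deficient and 4.13%, 1.42%, 5.53% and 15.1% in Sting gt/gt kidneys. Fcgr2b-/- replicates 1, 2 and 4 shared a slide with double-deficient replicate 1, and the other mice of these genotypes were on the other slide.

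**Figure D1:**
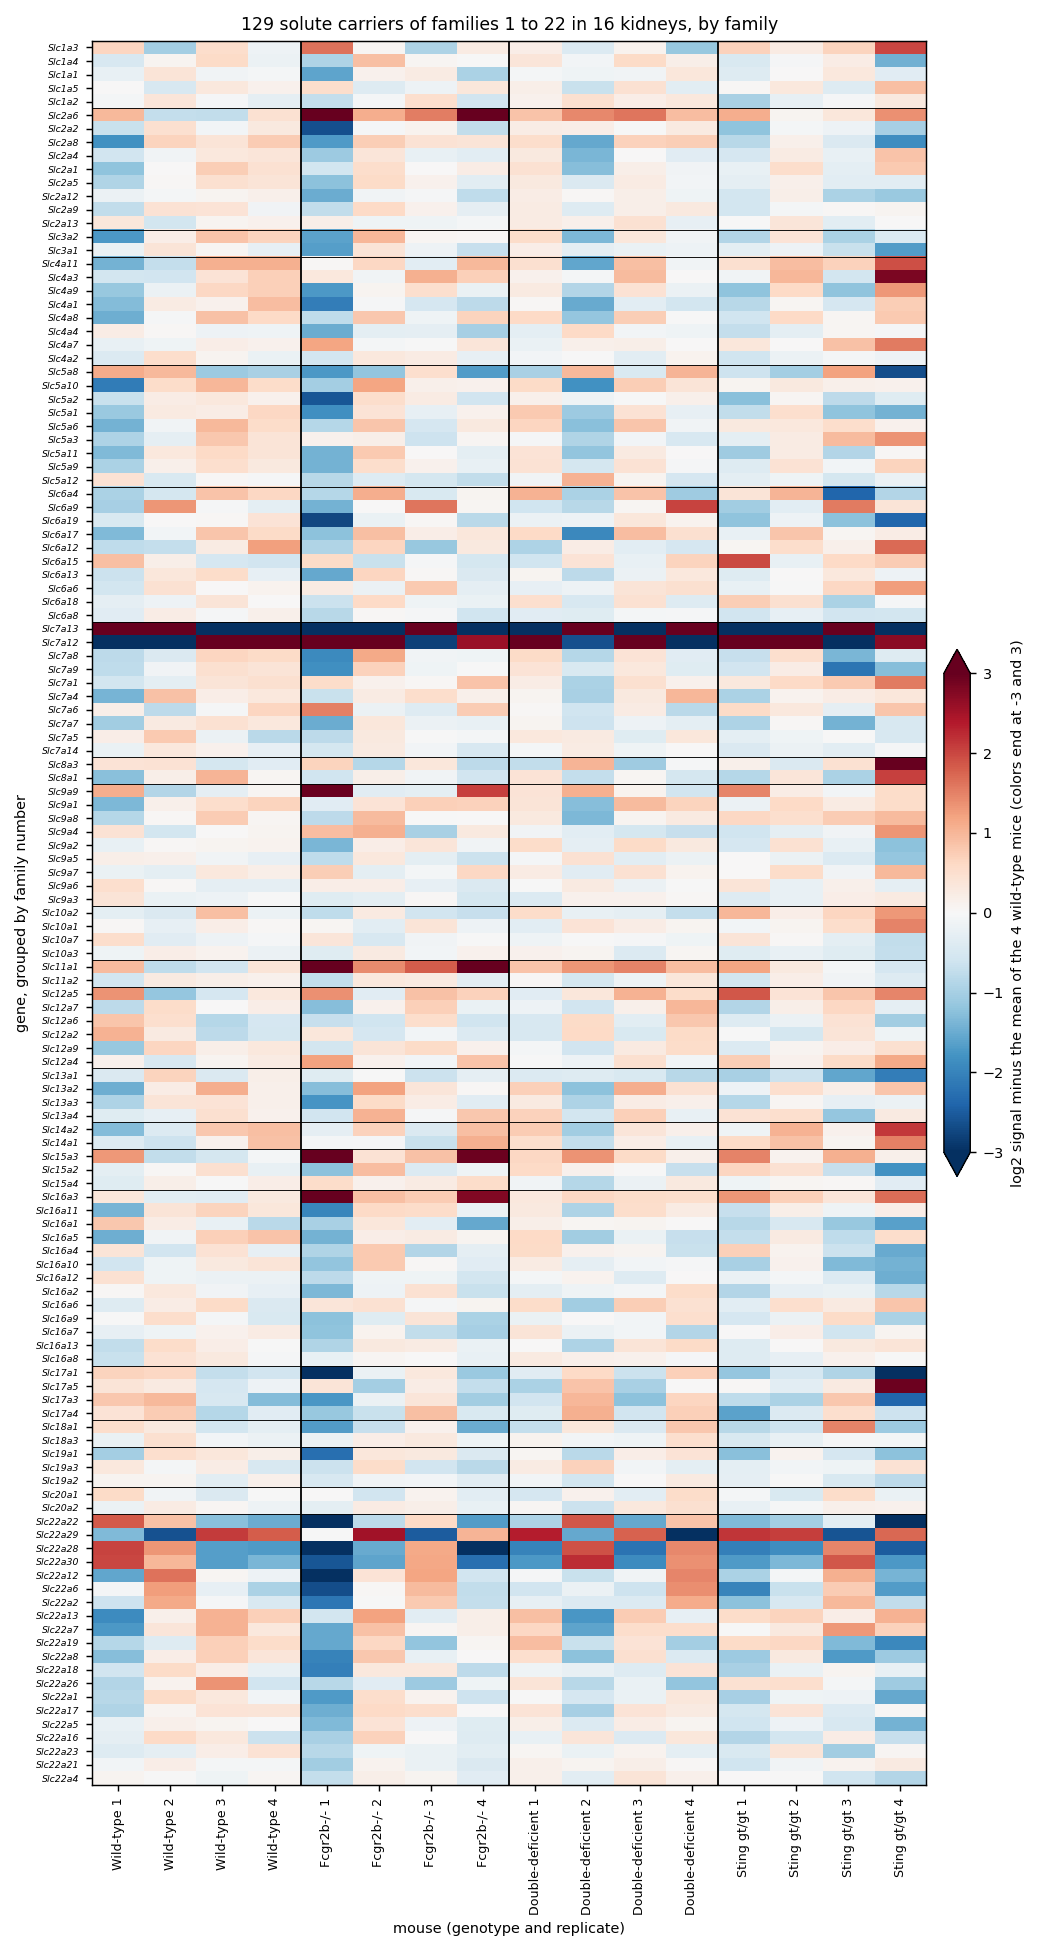
Each of the 129 carriers (down, by family) in each of the 16 kidneys (across, by genotype) as log2 signal minus the mean of the 4 wild-type kidneys, with colors ending at -3 and 3. Fcgr2b-/- replicate 1 has 55 carriers at least 2-fold below that mean, the most of the 16, and 18.0% of all probes lie there on this array.

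Between Fcgr2b-/- and wild-type kidneys, limma with an adjusted p under 0.05 and at least 2-fold called 0 of the 129 carriers, while 0.0505% of all probes tested were called. The smallest adjusted p of a carrier was 0.216. At an unadjusted p under 0.05 by limma, 4 carriers were higher (3.10%, against 2.64% of all probes) and 2 were lower (1.55%, against 0.71%). The 4 higher were Slc2a6, Slc11a1, Slc15a3 and Slc16a3, and the 2 lower were Slc4a4 and Slc16a7. Without Fcgr2b-/- replicate 1 the counts were 4 and 0. They were 5 and 7 without Fcgr2b-/- replicate 2, and 6 and 8 without Fcgr2b-/- replicate 3. All 4 Fcgr2b-/- values lay above all 4 wild-type values in 3 carriers, Slc2a6, Slc11a1 and Slc16a3 (0.62% of all probes), and below them in 1, Slc4a4 (0.617%). Of the 129, 37 had a log2 change above 0, against 43.4% of all probes. The median change of the carriers was -0.20 and that of all probes -0.06. The median of the carriers turned to 0.08 without Fcgr2b-/- replicate 1, but was -0.11 without all 4 arrays that stood apart. It was -0.35 without wild-type replicate 1. On the arrays with no Y-linked gene above background alone it was -0.47, against -0.08 for all probes.

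Double-deficient kidneys were then set beside the Fcgr2b-/- kidneys, which serve in both comparisons, so the 2 sets of values were not independent of each other. Limma called 0 of 129 carriers (0.0% of all probes), with a smallest adjusted p of 1.0, and at an unadjusted p under 0.05 by limma 2 were higher, Slc4a4 and Slc5a12 (0.654% of all probes), and 4 were lower, Slc2a6, Slc11a1, Slc15a4 and Slc16a3 (1.16%). Those counts were 0 and 2 without Fcgr2b-/- replicate 1, and 0 and 0 without the 4 arrays that stood apart. They rose to 8 and 5 without Fcgr2b-/- replicate 2, and to 10 and 7 without Fcgr2b-/- replicate 3. No carrier lay wholly above the Fcgr2b-/- range (0.741% of all probes) and 1, Slc16a3, lay wholly below it (0.281%). A log2 change above 0 was seen in 87 carriers, against 57.5% of all probes, and the median was 0.16 against 0.06. Without Fcgr2b-/- replicate 1 that median was -0.07, and without Fcgr2b-/- replicate 2 it was 0.37.

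Against wild-type, the double-deficient kidneys gave 0 carriers called by limma (0.0% of all probes), with 0 higher (0.298%) and 0 lower (0.126%) at an unadjusted p under 0.05, and 0 by an exact Mann-Whitney test with 2-fold (0.177% of all probes). None lay wholly above (0.317%) or wholly below (0.23%) the wild-type range. Changes above 0 numbered 71, against 50.6% of all probes, and the median was 0.01 against 0.00. That median was -0.13 without wild-type replicate 1 and 0.10 without double-deficient replicate 2.

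Sting gt/gt kidneys against wild-type, both on C57BL/6, gave 0 carriers called by limma (0.0% of all probes), with a smallest adjusted p of 0.732. At an unadjusted p under 0.05 by limma, 3 were higher, Slc7a1, Slc10a2 and Slc12a5 (1.84% of all probes), and 5 were lower, Slc6a19, Slc13a1, Slc16a1, Slc16a10 and Slc17a1 (1.91%). Without Sting gt/gt replicate 4 the counts became 0 higher and 1 lower, and without the 4 arrays that stood apart 2 and 15. They were 6 and 10 without Sting gt/gt replicate 2, and 0 and 5 with Y-linked signal as a covariate. The shares of all probes above belong to the reported fit, so these other counts have none to be set against. In 1 carrier, Slc16a3, every Sting gt/gt value lay above every wild-type value (0.587% of all probes), and in 2, Slc10a3 and Slc13a1, every value lay below (1.45%). Changes above 0 numbered 50, against 50.1% of all probes, with a median of -0.12 against 0.00. The median depended on the scaling: it was -0.03 by quantile normalization and -0.03 in the authors' value table, where all probes were at -0.03 as well. Without wild-type replicate 1 it was -0.27.

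Double-deficient kidneys against Sting gt/gt kidneys again gave 0 called by limma (0.0% of all probes), with a smallest adjusted p of 0.885. At an unadjusted p under 0.05 by limma, 4 were higher, Slc6a19, Slc13a1, Slc16a1 and Slc17a1 (1.63% of all probes), and 4 were lower, Slc1a3, Slc5a3, Slc7a1 and Slc10a2 (1.42%). Without Sting gt/gt replicate 4 the counts became 1 higher and 0 lower, and without the 4 arrays that stood apart 6 and 0. They were 9 and 8 without Sting gt/gt replicate 2, and 5 and 2 with Y-linked signal as a covariate. The groups did not overlap in 2 carriers that were higher, Slc2a2 and Slc16a1 (1.43% of all probes), or in 2 that were lower, Slc1a3 and Slc9a8 (0.702%). Changes above 0 numbered 80, against 51.0% of all probes, and the median was 0.17 against 0.01. It was 0.07 without Sting gt/gt replicate 1, 0.10 without double-deficient replicate 4 and 0.29 without double-deficient replicate 2. This comparison shared both the double-deficient and the Sting gt/gt mice with previous ones, and it compared mixed with C57BL/6 mice.

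The interaction asked whether the change with Fcgr2b loss differed between mice with and without the Sting gt/gt allele. Limma called 0 of 129 carriers (0.0% of all probes), with a smallest adjusted p of 0.661, and at an unadjusted p under 0.05 by limma it gave 8 higher (3.61% of all probes) and 7 lower (2.66%). The 8 higher were Slc2a2, Slc2a12, Slc4a4, Slc5a12, Slc6a19, Slc13a1, Slc16a1 and Slc17a1, and the 7 lower were Slc2a6, Slc4a7, Slc7a1, Slc11a1, Slc12a4, Slc15a3 and Slc16a3. Values above 0 numbered 84, against 52.0% of all probes, and the median was 0.35 against 0.03. The values ran from 4.95 for Slc7a13, followed by Slc17a1, Slc22a22, Slc22a28 and Slc6a19, to -3.20 for Slc7a12, followed by Slc16a3, Slc2a6, Slc15a3 and Slc11a1. Without Fcgr2b-/- replicate 1 the median was 0.13 with 5 higher and 2 lower, without wild-type replicate 1 it was 0.51, and without the 4 arrays that stood apart 0.34 with 5 and 3. Leaving out Fcgr2b-/- replicate 2 gave a median of 0.47 with 16 higher and 8 lower. With Y-linked signal as a covariate 6 were higher and 1, Slc16a3, was lower at that p by limma. Pooling both Fcgr2b-/- groups against both others called 0 carriers by limma (0.0674% of all probes), with a smallest adjusted p of 0.386, 2 higher at an unadjusted p under 0.05, Slc2a6 and Slc11a1 (1.16%), 1 lower, Slc10a2 (0.491%), and 64 above 0 (48.0%). A limma F test for any difference among the 4 genotypes called 0 carriers (0.0196% of all probes), with 6 at an unadjusted p under 0.05, Slc2a6, Slc10a2, Slc11a1, Slc13a1, Slc16a1 and Slc16a3 (4.65%, against 1.77%).

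Scaling by the median of each array adds the same amount to every carrier within a comparison, which can carry small changes across 0. When the arrays were scaled by their median instead of their 75th percentile, the median of all probes became -0.21 for Fcgr2b-/- against wild-type, -0.24 for Sting gt/gt against wild-type, -0.11 for double-deficient against wild-type, 0.14 for double-deficient against Sting gt/gt and 0.32 for the interaction. The medians of the carriers in the same order became -0.35, -0.37, -0.11, 0.30 and 0.64. The move that came with this scaling was the same for the carriers as for all probes.

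The early proximal carriers were 14 members that move glucose, amino acids, bicarbonate, organic acids and organic anions. Not all of them recover solutes from the filtrate. Their mean against the wild-type mean was -0.47, 0.28, 0.13 and 0.06 in wild-type, -2.03, 0.22, 0.12 and -0.54 in Fcgr2b-/-, 0.02, -0.19, 0.03 and 0.16 in double-deficient and -0.95, -0.06, -0.60 and -1.11 in Sting gt/gt kidneys. Fcgr2b-/- replicate 1 was the lowest of all 16 mice, replicate 4 was just below the wild-type range and replicates 2 and 3 lay inside it; Sting gt/gt replicates 1, 3 and 4 were below the wild-type range and replicate 2 was inside it. All 14 carriers lay lower in Fcgr2b-/- than in wild-type kidneys, with a median of -0.56, and all 14 higher in double-deficient than in Fcgr2b-/- kidneys, with a median of 0.62. These signs held under each of the 4 scalings but rested on 1 mouse: without Fcgr2b-/- replicate 1, 7 of 14 lay higher than in wild-type with a median of 0.02, and 6 of 14 lay higher in double-deficient kidneys with a median of -0.05. Leaving out double-deficient replicate 4 instead brought the latter median to 0.35. From wild-type to Sting gt/gt kidneys all 14 lay lower, with a median of -0.59, though 2 of 14 lay higher by quantile normalization or in the authors' table, and from Sting gt/gt to double-deficient kidneys all 14 lay higher, with a median of 0.56 (13 of 14 by quantile normalization or in that table). The interaction was above 0 for all 14, with a median of 1.06, and stayed above 0 for all 14 without Fcgr2b-/- replicate 1, where the median was 0.65. No member of the list was called by limma in any comparison; at an unadjusted p under 0.05 by limma, 1 was lower in Fcgr2b-/- kidneys (0.71% of all probes), 2 were higher in double-deficient than in Fcgr2b-/- kidneys (0.654%), 2 were lower in Sting gt/gt than in wild-type kidneys (1.91%), 2 were higher in double-deficient than in Sting gt/gt kidneys (1.63%), and 5 had an interaction above 0 (3.61%).

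Slc4a4, the carrier that lets bicarbonate out on the blood side, read 6.67, 6.48, 6.29 and 6.31 in wild-type, 4.95, 6.14, 6.16 and 5.44 in Fcgr2b-/-, 6.14, 7.03, 6.36 and 6.32 in double-deficient and 5.73, 6.15, 6.50 and 6.40 in Sting gt/gt kidneys, on the same log2 scale. All 4 Fcgr2b-/- values were below all wild-type values, with replicates 1 and 4 the lowest, and double-deficient replicate 1 fell within the Fcgr2b-/- range. Slc4a4 differed by -0.76 (SE 0.30) between Fcgr2b-/- and wild-type kidneys, with a limma p of 0.0219 and an adjusted p of 1.0. Without Fcgr2b-/- replicate 1 the difference was -0.52, and without the 4 arrays that stood apart -0.45 with a limma p of 0.106. Slc4a4 differed by 0.79 from Fcgr2b-/- to double-deficient kidneys (SE 0.30), with a limma p of 0.0185 and an adjusted p of 1.0, and by 0.36 without the 4 arrays.

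Glucose passes from the filtrate through Slc5a2 and out to the blood through Slc2a2. Slc5a2 read 5.79, 6.69, 6.79 and 6.60 in wild-type, 3.90, 7.0, 6.72 and 5.88 in Fcgr2b-/-, 6.62, 6.35, 6.46 and 6.62 in double-deficient and 5.23, 6.53, 5.68 and 6.12 in Sting gt/gt kidneys. The lowest value was that of Fcgr2b-/- replicate 1, and every group overlapped the wild-type range. Slc2a2 read 0.83, 1.98, 1.42 and 1.80 in wild-type, -1.12, 1.48, 1.61 and 0.76 in Fcgr2b-/-, 1.73, 1.71, 1.49 and 1.79 in double-deficient and 0.31, 1.45, 1.36 and 0.51 in Sting gt/gt kidneys. Fcgr2b-/- replicate 1 was again the lowest, and the 4 double-deficient values, close to each other, all lay above the 4 Sting gt/gt values. Slc2a2 differed by 0.77 (SE 0.49) between those 2 genotypes, and its interaction was 1.60 with a limma p of 0.0367, or 0.99 without Fcgr2b-/- replicate 1.

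Slc6a19 takes up neutral amino acids. It read 2.99, 3.47, 3.48 and 3.87 in wild-type, 0.72, 3.26, 3.49 and 2.65 in Fcgr2b-/-, 3.29, 3.30, 3.78 and 3.56 in double-deficient and 2.24, 3.30, 2.23 and 1.07 in Sting gt/gt kidneys. Sting gt/gt replicates 1, 3 and 4 were below the wild-type range and replicate 2 was inside it, and the double-deficient values lay inside it too. From wild-type to Sting gt/gt kidneys Slc6a19 differed by -1.24 (SE 0.53), with a limma p of 0.033 and an adjusted p of 0.732, and by -0.86 without Sting gt/gt replicate 4. Its interaction was 2.19, with a limma p of 0.0103 and an adjusted p of 0.661, and 1.42 without the 4 arrays that stood apart. Slc5a12, which takes up lactate with sodium, read 5.99, 5.10, 5.59 and 5.51 in wild-type, 4.73, 5.16, 5.02 and 4.81 in Fcgr2b-/-, 5.45, 6.59, 5.64 and 5.06 in double-deficient and 5.25, 5.43, 5.01 and 5.36 in Sting gt/gt kidneys. Double-deficient replicate 2 was the highest of the 16, and each pair of groups overlapped. Between Fcgr2b-/- and double-deficient kidneys Slc5a12 differed by 0.75 (SE 0.30), with a limma p of 0.0224 and an adjusted p of 1.0, and by 0.45 without double-deficient replicate 2.

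Slc17a1 carries phosphate and organic anions at the luminal membrane. It read 4.68, 4.65, 3.30 and 3.46 in wild-type, 1.02, 3.82, 4.35 and 2.90 in Fcgr2b-/-, 3.68, 4.63, 3.39 and 4.73 in double-deficient and 2.88, 3.53, 3.13 and -1.40 in Sting gt/gt kidneys. Sting gt/gt replicate 4 lay far below the other 15 mice, with Fcgr2b-/- replicate 1 next, and the groups overlapped. The difference from wild-type to Sting gt/gt kidneys was -1.99 (SE 0.93), with a limma p of 0.0479 and an adjusted p of 0.732, and it was -0.85 without Sting gt/gt replicate 4. Slc17a1 had an interaction of 3.08 with all mice, of 1.93 without that replicate, and of 0.87 with a limma p of 0.228 without the 4 arrays that stood apart. With Y-linked signal as a covariate the difference was -1.60 (limma p 0.0829) and the interaction 2.34 (limma p 0.0786).

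Sulfate is recovered by Slc13a1, which read 5.68, 6.76, 5.68 and 6.28 in wild-type, 5.74, 6.08, 5.47 and 5.83 in Fcgr2b-/-, 5.69, 5.72, 5.65 and 5.28 in double-deficient and 5.13, 5.46, 4.55 and 4.02 in Sting gt/gt kidneys. All 4 Sting gt/gt values lay below all 4 wild-type values, while they overlapped the double-deficient values through replicate 2. Slc13a1 differed by -1.31 (SE 0.32), or 2.48-fold, between Sting gt/gt and wild-type kidneys, with a limma p of 0.000972 and an adjusted p of 0.732. Leaving out 1 array at a time gave -1.54 to -1.06, and the 4 scalings gave -1.55 to -1.05. From Sting gt/gt to double-deficient kidneys Slc13a1 differed by 0.79 (SE 0.32), with a limma p of 0.026 and an adjusted p of 0.885, and by 0.49 without the 4 arrays that stood apart. Both differences share the Sting gt/gt mice; the interaction was 1.11 with a limma p of 0.027.

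The late proximal carriers were 9 members for the remaining sugar, amino acids, peptides and organic ions, with Slc22a7 of family 22 the brightest. Slc5a8, Slc7a12 and Slc7a13, which split the mice by Y-linked signal as described below, are in the list and enter its means. The means against the wild-type mean were -0.20, 0.41, 0.00 and -0.21 in wild-type, -1.40, 0.19, 0.15 and -0.68 in Fcgr2b-/-, -0.06, -0.04, -0.04 and 0.00 in double-deficient and -0.14, 0.01, -0.20 and -1.04 in Sting gt/gt kidneys. Fcgr2b-/- replicates 1 and 4 and Sting gt/gt replicate 4 lay below the wild-type range and the other mice inside it. Of the 9, 1 lay higher in Fcgr2b-/- than in wild-type kidneys (3 by quantile normalization), with a median of -0.38, and 8 lay higher in double-deficient than in Fcgr2b-/- kidneys, with a median of 0.35. Without Fcgr2b-/- replicate 1 those became 5 of 9 with 0.09 and 4 of 9 with -0.07. Limma called 0 of the 9 in these comparisons, with 0 at an unadjusted p under 0.05.

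Several carriers varied far more between mice of a genotype than between genotypes. Among the 129 the range over 16 mice had a median of 2.30, from 0.84 for Slc7a14 to 10.44 for Slc7a13. The residual SD was over 1 in 20 of 129 carriers (15.5%), against 872 of the 13848 named genes (6.30%). The labels do not give sex. All 4 Y-linked genes, Eif2s3y, Ddx3y, Kdm5d and Uty, were above background on wild-type replicates 1 and 2, Fcgr2b-/- replicate 3, double-deficient replicates 2 and 4 and Sting gt/gt replicate 3, and Xist was above background on the other 10 arrays. The genotypes were therefore unequal in this respect, with 2, 1, 2 and 1 of 4 kidneys that read Y-linked RNA. The 5 X- and Y-linked probes themselves had a median difference of -1.74 between Fcgr2b-/- and wild-type kidneys, and 4 genes known as male-biased in kidney, among them Slco1a1, had one of -0.83; limma called 0 of either, and 0 had an unadjusted p under 0.05.

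Slc7a13, a late proximal carrier of aspartate, glutamate and cystine, read 6.10, 6.43, -2.81 and -2.82 in wild-type, -4.01, -2.23, 5.99 and -3.67 in Fcgr2b-/-, -3.84, 6.43, -2.52 and 5.91 in double-deficient and -3.10, -2.36, 5.56 and -3.11 in Sting gt/gt kidneys. Eif2s3y on the same arrays read 2.35, 0.81, -6.21 and -7.03, then -7.16, -6.04, 0.87 and -6.86, then -6.68, 2.09, -7.30 and 1.09, then -6.97, -7.22, 0.61 and -6.45. The 6 mice high in Slc7a13 were the 6 high in Eif2s3y, and every genotype held both kinds. Slc7a12 read -1.51, -1.21, 5.55 and 5.15 in wild-type, 5.35, 5.50, -0.81 and 4.59 in Fcgr2b-/-, 5.37, -0.65, 5.24 and -2.57 in double-deficient and 6.20, 5.61, -2.96 and 4.71 in Sting gt/gt kidneys. Xist read -7.37, -6.75, -1.34 and -1.37, then -0.88, -3.15, -7.15 and -1.08, then -1.15, -6.91, -1.20 and -7.15, then -1.07, -0.78, -6.55 and -1.39. The 6 mice low in Slc7a12 were the 6 low in Xist. Slc7a13 and Slc7a12 also had the most extreme interactions of the 129, at 4.95 and -3.20, in groups with 2, 1, 2 and 1 kidneys of the Y-linked kind. With Y-linked signal as a covariate these interactions were -0.02 (limma p 0.979) and 0.60 (limma p 0.548).

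Family 22 held more carriers of this kind. Slc22a28 read 5.35, 4.64, 1.67 and 1.62 in wild-type, 0.07, 1.80, 4.46 and 0.31 in Fcgr2b-/-, 1.32, 5.22, 1.09 and 4.76 in double-deficient and 1.27, 1.45, 4.78 and 0.82 in Sting gt/gt kidneys. Slc22a30 read 6.25, 5.24, 2.58 and 2.86, then 1.66, 2.66, 5.40 and 1.98, then 2.51, 6.44, 2.35 and 5.60, then 2.54, 2.89, 6.10 and 2.51 in the same order. Both were high on the 6 arrays that read Y-linked RNA and lower on the other 10, with no overlap between these arrays. Slc22a29 ran the other way: it read -0.91, -2.21, 2.50 and 2.22 in wild-type, 0.39, 2.91, -2.09 and 1.43 in Fcgr2b-/-, 2.76, -1.13, 2.17 and -2.91 in double-deficient and 2.56, 2.47, -2.20 and 2.12 in Sting gt/gt kidneys. It was low on those 6 arrays and higher on the other 10. Slc5a8, which takes up lactate, read 4.31, 4.17, 2.11 and 2.22 in wild-type, 1.47, 2.02, 3.71 and 1.52 in Fcgr2b-/-, 2.24, 4.17, 2.75 and 4.23 in double-deficient and 2.57, 2.18, 4.41 and 0.55 in Sting gt/gt kidneys, again high on the same 6 arrays. Of the 6 carriers at least 2-fold lower in Fcgr2b-/- than in wild-type kidneys (0.794% of all probes), Slc5a8, Slc7a13, Slc22a28 and Slc22a30 were among those just named, and Slc17a1 and Slc22a22 were the other 2; the wild-type group held 2 of the 6 arrays with Y-linked RNA and the Fcgr2b-/- group 1. Another 6 were at least 2-fold higher, Slc2a6, Slc7a12, Slc9a9, Slc11a1, Slc15a3 and Slc16a3 (4.33% of all probes).

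**Figure D2:**
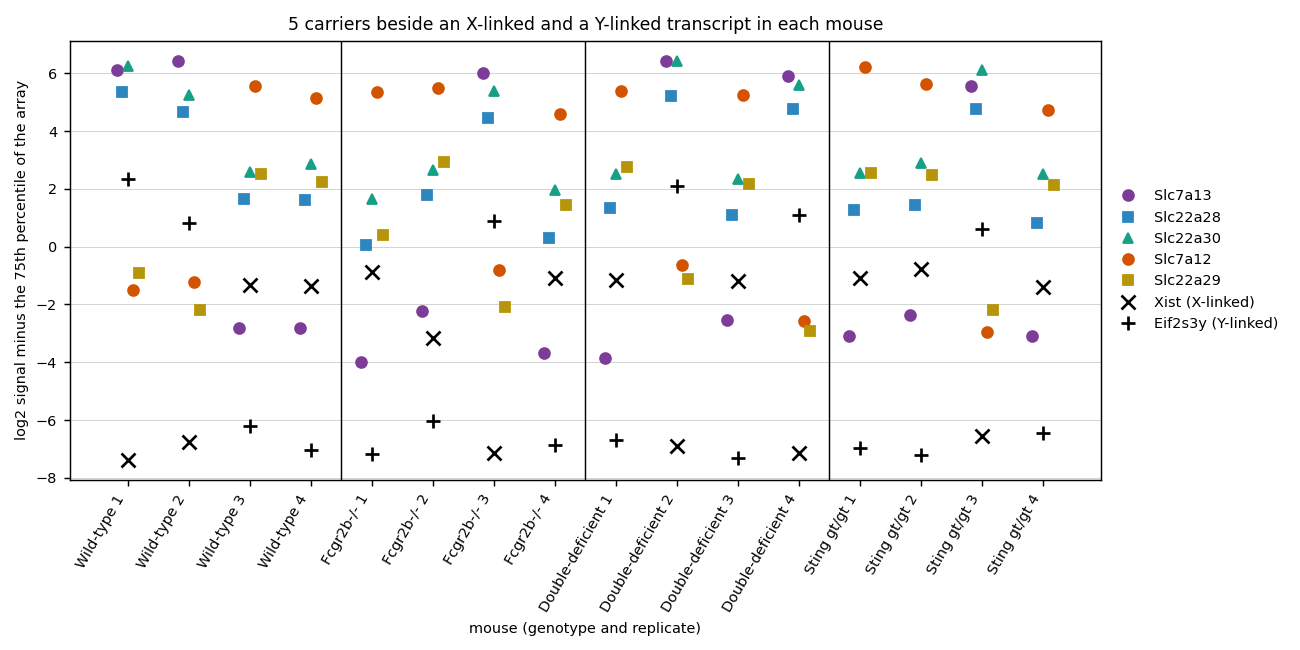
Slc7a13, Slc22a28, Slc22a30, Slc7a12 and Slc22a29 beside Xist and Eif2s3y, as log2 signal minus the 75th percentile of the array (up) for each of the 16 kidneys (across). The 6 kidneys high in Eif2s3y are the 6 high in Slc7a13 and low in Slc7a12.

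Slc22a28, Slc22a30 and Slc22a29 lie near each other on chromosome 19, and their promoters are shown because the first 2 and the last read in opposite directions across the mice. The sequences are the 250 bases before the transcription start in RefSeq on build GRCm38.p6: Slc22a28 at chr19:8131983-8132232, Slc22a30 at chr19:8405106-8405355 and Slc22a29 at chr19:8218901-8219150, all on the minus strand. Capitals mark runs of 12 or more bases that all 3 share, 73 bases in each. Over all columns of a pairwise alignment, with gaps counted as differences, Slc22a28 and Slc22a30 are identical at 93.0% (238 of 256 columns). By the same measure Slc22a28 and Slc22a29 are at 65.1% (183 of 281), and Slc22a30 and Slc22a29 at 65.2% (182 of 279). The share over paired bases alone is higher. Slc22a28 and Slc22a30 have the HNF4-type element CAAAGT (12.6% of all promoters on both strands), and a match only describes the sequence. Whether the probes of Slc22a28 and Slc22a30 also read each other's RNA was not tested.
Slc22a28: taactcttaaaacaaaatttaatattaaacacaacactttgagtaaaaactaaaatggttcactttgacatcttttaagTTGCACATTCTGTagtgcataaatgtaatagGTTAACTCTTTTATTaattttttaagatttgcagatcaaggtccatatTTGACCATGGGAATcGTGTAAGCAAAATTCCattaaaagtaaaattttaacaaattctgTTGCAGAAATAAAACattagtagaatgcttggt
Slc22a30: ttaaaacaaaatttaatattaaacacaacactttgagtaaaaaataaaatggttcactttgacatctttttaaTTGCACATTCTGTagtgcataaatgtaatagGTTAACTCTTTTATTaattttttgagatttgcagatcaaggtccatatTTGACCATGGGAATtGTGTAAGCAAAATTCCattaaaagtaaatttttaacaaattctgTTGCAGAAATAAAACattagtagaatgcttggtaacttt
Slc22a29: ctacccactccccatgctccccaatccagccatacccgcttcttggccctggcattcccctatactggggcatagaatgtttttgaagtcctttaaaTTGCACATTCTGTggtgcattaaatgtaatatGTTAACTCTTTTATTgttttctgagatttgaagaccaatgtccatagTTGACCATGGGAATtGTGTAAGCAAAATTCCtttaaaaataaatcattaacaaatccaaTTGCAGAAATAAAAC

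Over all members, 90 of 129 have a promoter in the same source, with 117 entries among 32851. CAAAGT is found in 13.7% of the 117, the STAT site TTCNNNGAA in 6.84% against 7.02% of all promoters, and the PU.1 site GAGGAAGT in 2.56% against 2.44%. Slc7a12, Slc7a13 and Slc15a3 have no entry.

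The distal and vasa recta carriers, 7 members for anion exchange, potassium chloride and urea, had means against the wild-type mean of -1.09, -0.04, 0.51 and 0.62 in wild-type, -0.97, 0.26, -0.09 and 0.13 in Fcgr2b-/-, 0.35, -0.94, 0.23 and -0.05 in double-deficient and -0.56, 0.53, -0.25 and 1.18 in Sting gt/gt kidneys. Wild-type replicate 1, Fcgr2b-/- replicate 1 and double-deficient replicate 2 were low, Sting gt/gt replicate 4 was the highest, and the groups overlapped. From wild-type to Fcgr2b-/- kidneys 3 of 7 lay higher, with a median of -0.16, which became 0.13 without Fcgr2b-/- replicate 1 and 0.07 without wild-type replicate 3. From wild-type to Sting gt/gt kidneys 4 of 7 lay higher, with a median of 0.15, which became -0.03 without Sting gt/gt replicate 4 and -0.27 without wild-type replicate 1. Limma called 0 of the 7, with 0 at an unadjusted p under 0.05.

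General nutrient carriers, 13 members that most cells use, such as Slc3a2 and Slc2a1, gave 5 of 13 higher in Fcgr2b-/- than in wild-type kidneys with a median of -0.05, and 0 called by limma with 0 at an unadjusted p under 0.05. Slc16a1, which moves lactate and pyruvate, belongs to them and read 3.78, 3.20, 2.77 and 2.17 in wild-type, 2.0, 3.33, 2.67 and 1.45 in Fcgr2b-/-, 3.15, 3.04, 3.05 and 2.99 in double-deficient and 2.14, 2.50, 1.85 and 1.36 in Sting gt/gt kidneys. The double-deficient values lay close together and above all 4 Sting gt/gt values, while wild-type replicate 4 fell within the Sting gt/gt range. Slc16a1 differed by 1.10 (SE 0.40) between Sting gt/gt and double-deficient kidneys, with a limma p of 0.0149 and an adjusted p of 0.885, and by -1.02 (SE 0.40) between wild-type and Sting gt/gt kidneys, with a limma p of 0.0222 and an adjusted p of 0.732. Without the 4 arrays that stood apart these were 0.90 and -0.55. Its interaction was 1.72 with a limma p of 0.00826.

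Slc7a1, the carrier for arginine and lysine, read 0.05, 0.31, 0.98 and 1.07 in wild-type, 1.15, 0.72, 0.64 and 1.45 in Fcgr2b-/-, 0.83, -0.35, 1.09 and 0.72 in double-deficient and 0.92, 1.21, 1.40 and 2.16 in Sting gt/gt kidneys. Sting gt/gt replicate 4 was the highest and double-deficient replicate 2 the lowest, and the groups overlapped. From wild-type to Sting gt/gt kidneys the difference in Slc7a1 was 0.82 (SE 0.36), with a limma p of 0.0399 and an adjusted p of 0.732, and 0.39 without the 4 arrays that stood apart. Slc10a2, which takes up bile acids, read 3.09, 2.96, 4.28 and 3.20 in wild-type, 2.62, 3.65, 2.81 and 2.69 in Fcgr2b-/-, 3.92, 3.17, 3.11 and 2.67 in double-deficient and 4.38, 3.58, 4.03 and 4.68 in Sting gt/gt kidneys. Sting gt/gt replicates 1 and 4 were the highest of all, and the groups overlapped. Slc10a2 was the carrier lower in the pooled comparison, by -0.70 with a limma p of 0.0164 and an adjusted p of 1.0, and it differed by -0.95 from Sting gt/gt to double-deficient kidneys with a limma p of 0.0197.

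Slc1a3 takes up glutamate. It read -2.09, -3.76, -2.21 and -2.89 in wild-type, -1.12, -2.69, -3.66 and -2.49 in Fcgr2b-/-, -2.55, -3.14, -2.63 and -3.87 in double-deficient and -2.04, -2.50, -2.07 and -0.72 in Sting gt/gt kidneys. All 4 double-deficient values lay below all 4 Sting gt/gt values, of which replicate 4 was the highest. Slc1a3 differed by -1.21 (SE 0.54) between them, with a limma p of 0.0383 and an adjusted p of 0.885, and by -0.84 without Sting gt/gt replicate 4. Slc9a8, a sodium-proton exchanger, read 5.17, 6.07, 6.79 and 6.09 in wild-type, 5.25, 6.99, 6.01 and 6.04 in Fcgr2b-/-, 6.31, 4.69, 6.11 and 6.30 in double-deficient and 6.66, 6.53, 6.79 and 6.99 in Sting gt/gt kidneys. Again no double-deficient value reached the Sting gt/gt range, and replicate 2 was far below the other 3. The difference in Slc9a8 was -0.89 (SE 0.43), with a limma p of 0.0549, and -0.50 without double-deficient replicate 2; the lowest correlation among its 3 probes that passed was 0.283.

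The leukocyte-associated carriers were 5 members, Slc2a6, Slc11a1, Slc15a3, Slc15a4 and Slc16a3, out of 8 listed; Slc2a3, Slc7a2 and Slc7a11 were not well above background on all 16 arrays. Their mean against the wild-type mean was 0.65, -0.47, -0.44 and 0.26 in wild-type, 3.23, 0.80, 1.04 and 2.91 in Fcgr2b-/-, 0.51, 0.77, 0.81 and 0.57 in double-deficient and 0.99, 0.25, 0.35 and 0.47 in Sting gt/gt kidneys. All 4 Fcgr2b-/- mice lay above the wild-type range, with replicates 1 and 4 far above replicates 2 and 3, and replicate 2 was within the double-deficient range. All 5 lay higher in Fcgr2b-/- than in wild-type kidneys under each of the 4 scalings and without any 1 array, with a median of 2.0 (1.48 without Fcgr2b-/- replicate 1), and 4 of them had an unadjusted p under 0.05 by limma (2.64% of all probes), which called 0. From Fcgr2b-/- to double-deficient kidneys all 5 lay lower, with a median of -1.49 (-0.97 without Fcgr2b-/- replicate 1), again with 4 at an unadjusted p under 0.05 (1.16% of all probes) and 0 called. The interaction was below 0 for all 5, with a median of -2.03. From wild-type to double-deficient kidneys 4 of 5 lay higher, with a median of 0.67 and 0 at an unadjusted p under 0.05.

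Slc11a1 pumps metal ions out of the phagosomes of macrophages. It read -1.47, -3.19, -3.01 and -2.04 in wild-type, 1.35, -1.02, -0.61 and 1.97 in Fcgr2b-/-, -1.56, -1.11, -0.94 and -1.49 in double-deficient and -1.25, -2.14, -2.50 and -2.92 in Sting gt/gt kidneys. All 4 Fcgr2b-/- values lay above all 4 wild-type values, replicates 1 and 4 by far the most, while replicate 2 overlapped the double-deficient values. Slc11a1 differed by 2.85 (SE 0.60), or 7.20-fold, between Fcgr2b-/- and wild-type kidneys, with a limma p of 0.000248 and an adjusted p of 0.216. It was 2.33 without Fcgr2b-/- replicate 4 and 3.33 without replicate 2, and the 4 scalings gave 2.13 to 2.78. Slc11a1 differed by -1.70 from Fcgr2b-/- to double-deficient kidneys (SE 0.60), with a limma p of 0.0124 and an adjusted p of 1.0, and by -1.18 without Fcgr2b-/- replicate 4; its interaction was -1.93 with a limma p of 0.0382.

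Slc2a6, a hexose carrier of lysosomes, read -2.23, -3.92, -3.95 and -2.75 in wild-type, 1.30, -2.12, -1.67 and 0.70 in Fcgr2b-/-, -2.36, -1.77, -1.60 and -2.29 in double-deficient and -2.12, -3.14, -2.87 and -1.84 in Sting gt/gt kidneys. The 4 Fcgr2b-/- values were all above the wild-type values, replicate 2 narrowly so, and replicates 2 and 3 fell among the double-deficient values. Between wild-type and Fcgr2b-/- kidneys Slc2a6 differed by 2.76 (SE 0.66), with a limma p of 0.000755 and an adjusted p of 0.385, and by 2.18 without Fcgr2b-/- replicate 1. Normexp background correction, which also starts from another signal column, gave 1.80. From Fcgr2b-/- to double-deficient kidneys the difference in Slc2a6 was -1.56 (SE 0.66), with a limma p of 0.0317 and an adjusted p of 1.0, and -0.97 without Fcgr2b-/- replicate 1.

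Slc16a3 exports lactate from cells that live on glycolysis. It read -2.05, -2.71, -2.74 and -2.11 in wild-type, 1.14, -1.50, -1.65 and 0.38 in Fcgr2b-/-, -2.08, -1.79, -1.84 and -1.87 in double-deficient and -1.08, -1.69, -2.03 and -0.72 in Sting gt/gt kidneys. Every Fcgr2b-/- value lay above every wild-type and every double-deficient value, with replicates 2 and 3 close to the latter, and the Sting gt/gt values lay above the wild-type values too, replicate 3 narrowly. Slc16a3 differed by 2.0 (SE 0.51) between Fcgr2b-/- and wild-type kidneys, with a limma p of 0.00144 and an adjusted p of 0.543, and by 1.48 without Fcgr2b-/- replicate 1. From Fcgr2b-/- to double-deficient kidneys it differed by -1.49 (SE 0.51), with a limma p of 0.011 and an adjusted p of 1.0, and by -0.97 without that replicate. Sting gt/gt against wild-type kidneys gave 1.02 (SE 0.51), with a limma p of 0.065, and the interaction of Slc16a3 was -2.51 (SE 0.73), with a limma p of 0.00349 and an adjusted p of 0.661.

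Slc15a3 and Slc15a4 carry peptides and histidine out of endosomes and lysosomes. Slc15a3 read -1.33, -3.36, -3.15 and -2.70 in wild-type, 1.11, -2.20, -1.76 and 0.31 in Fcgr2b-/-, -2.02, -1.29, -2.06 and -2.49 in double-deficient and -1.14, -2.52, -1.58 and -2.48 in Sting gt/gt kidneys. Fcgr2b-/- replicates 1 and 4 were the highest of the 16, while wild-type replicate 1 was above Fcgr2b-/- replicates 2 and 3. Slc15a3 differed by 2.0 (SE 0.66) between Fcgr2b-/- and wild-type kidneys, with a limma p of 0.00798 and an adjusted p of 1.0, and by 1.42 without Fcgr2b-/- replicate 1. Slc15a4 read 2.54, 3.08, 2.89 and 3.10 in wild-type, 3.46, 3.04, 3.15 and 3.44 in Fcgr2b-/-, 2.80, 2.05, 2.73 and 3.20 in double-deficient and 2.77, 2.97, 2.94 and 2.56 in Sting gt/gt kidneys. Double-deficient replicate 2 was the lowest and replicate 4 lay within the Fcgr2b-/- range. Slc15a4 differed by -0.58 from Fcgr2b-/- to double-deficient kidneys (SE 0.25), with a limma p of 0.0362 and an adjusted p of 1.0, and by -0.36 without double-deficient replicate 2.

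Markers of leukocytes and of injured tubules outside the naming rule gave the same 2 mice as the highest of their genotype. Adgre1, a macrophage marker, read 1.31, -1.19, -0.80 and -0.19 in wild-type, 4.11, 0.97, 0.84 and 3.45 in Fcgr2b-/-, 0.94, 1.61, 0.45 and -0.19 in double-deficient and 1.66, 0.20, -0.34 and -1.01 in Sting gt/gt kidneys. Havcr1, made by injured proximal tubules, read -4.60, -3.98, -4.86 and -3.84 in wild-type, 1.0, -4.05, -3.24 and -0.00 in Fcgr2b-/-, -4.76, -3.21, -5.49 and -3.03 in double-deficient and -4.78, -4.65, -4.27 and -6.55 in Sting gt/gt kidneys. Fcgr2b-/- replicates 1 and 4 were highest in both, and replicates 2 and 3 overlapped other groups in both. Of 11 leukocyte markers 10 could be tested, and 7 lay higher in Fcgr2b-/- than in wild-type kidneys, 5 with an unadjusted p under 0.05 by limma (2.64% of all probes) and 0 called; Itgam was the brightest. Of 7 markers of tubular injury, Spp1 the brightest, whose mean against wild-type was -0.27, -0.25, 0.25 and 0.27 in wild-type, 2.70, 0.53, -0.18 and 2.45 in Fcgr2b-/-, 0.29, 0.17, -0.16 and -0.08 in double-deficient and 0.30, 0.04, -0.36 and 0.03 in Sting gt/gt kidneys, 6 lay higher, 3 with an unadjusted p under 0.05 (2.64%) and 0 called. The early proximal carriers were lowest in the same 2 mice of that genotype, and a link between the 2 sets was not tested.

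**Figure D3:**
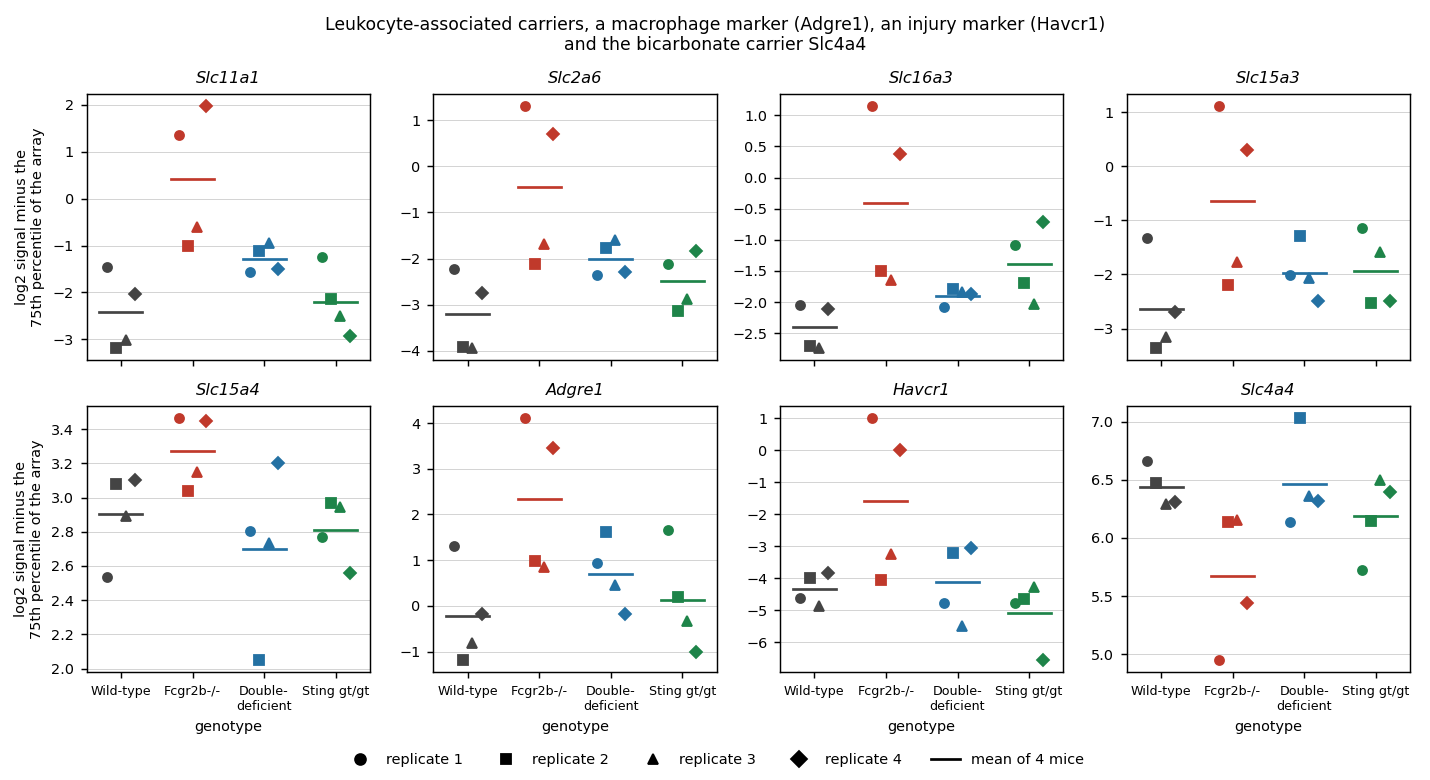
Slc11a1, Slc2a6, Slc16a3, Slc15a3 and Slc15a4 with Adgre1, Havcr1 and Slc4a4, as log2 signal minus the 75th percentile of the array, by genotype; each shape is a replicate and lines mark the mean of 4 kidneys. Fcgr2b-/- replicates 1 and 4 are the highest of their genotype in all but Slc4a4, where they are the lowest.

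**Figure D4:**
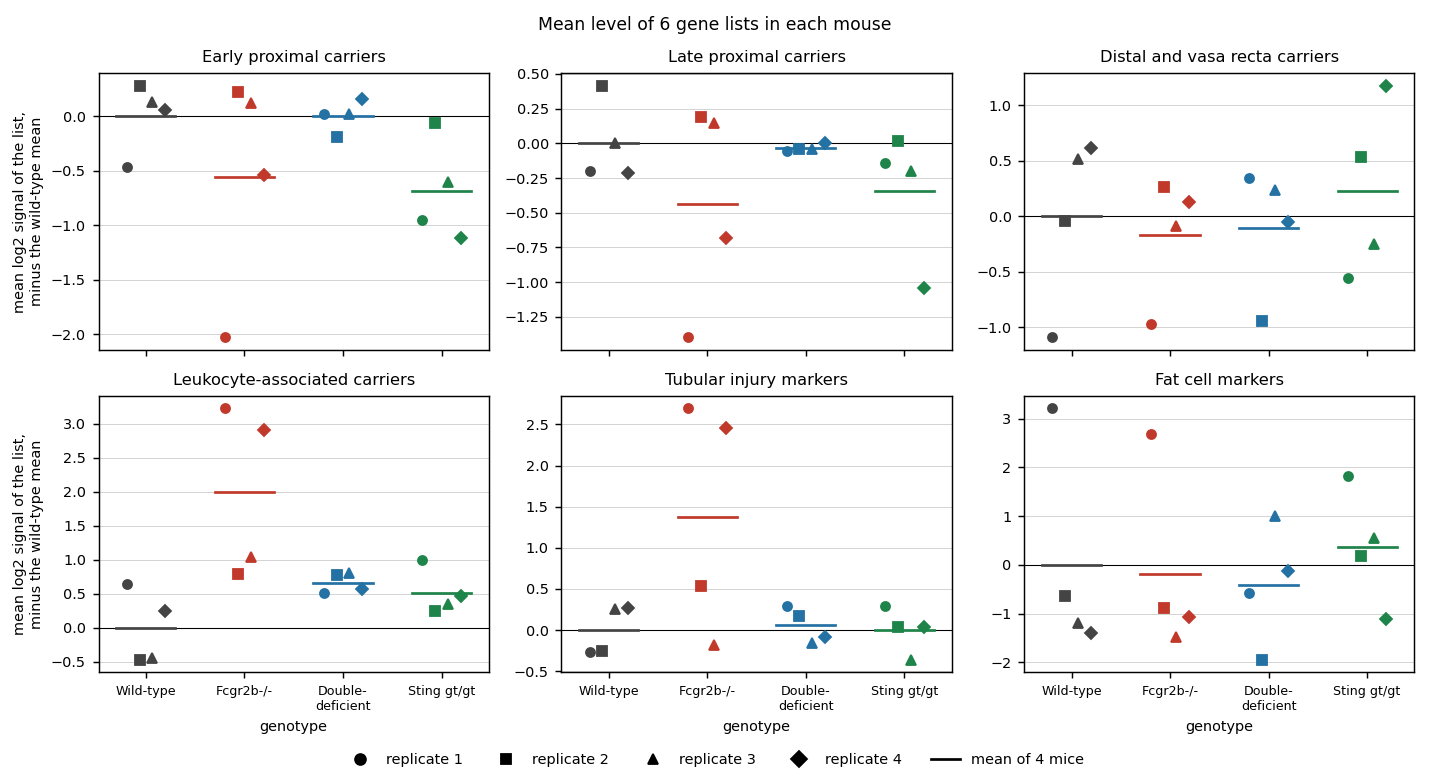
The mean log2 signal of 6 lists of carriers and markers in each kidney, minus the mean of the wild-type kidneys, by genotype. Early proximal carriers are at -2.03 and tubular injury markers at 2.70 in Fcgr2b-/- replicate 1.

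The promoter of Slc11a1 is shown since this carrier has the smallest p of the 129 between Fcgr2b-/- and wild-type kidneys. It covers the 250 bases before the RefSeq start on build GRCm38.p6, chr1:74374953-74375202 on the plus strand, and capitals mark GGAA or TTCC, the core that ETS factors such as PU.1 bind. It has 7 of them, where the median promoter has 3 and 93.4% of all promoters have at least 1; Slc2a6 has 1. The longer PU.1 site GAGGAAGT is found in 0 of the 4 promoters of leukocyte-associated carriers with an entry, and a match only describes the sequence.
Slc11a1: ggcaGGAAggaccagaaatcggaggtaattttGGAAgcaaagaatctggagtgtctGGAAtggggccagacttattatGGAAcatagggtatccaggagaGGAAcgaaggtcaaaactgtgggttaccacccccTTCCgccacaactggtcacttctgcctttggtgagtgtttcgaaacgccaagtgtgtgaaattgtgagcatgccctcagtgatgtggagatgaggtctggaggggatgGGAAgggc

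By family, the median change from wild-type to Fcgr2b-/- kidneys was above 0 in 6 of 21 families with all mice, in 12 of 21 without Fcgr2b-/- replicate 1, and in 2 of 21 under scaling by the median, which adds the same amount to every family. The highest was family 11, metal transporters, at 1.36 (1.31 without that mouse), which rested on Slc11a1 of its 2 members, and the next was family 15, peptide carriers, at 0.37 (0.31). The lowest were family 17 at -0.49 (-0.31), family 18 at -0.44 (-0.28), family 22 at -0.41 (-0.01), family 19 at -0.37 (-0.17) and family 3 at -0.33 (0.10). With Y-linked signal as a covariate family 17 was at -0.12 and family 18 at -0.21. Apart from scaling by the median, the sign flipped under at least 1 scaling in families 12 and 13. In family 22, 2 of 20 carriers lay higher in Fcgr2b-/- than in wild-type kidneys.

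From Fcgr2b-/- to double-deficient kidneys, which shared the Fcgr2b-/- mice with the comparison above, 16 of 21 families had a median above 0, or 8 of 21 without Fcgr2b-/- replicate 1. Family 11 was at -0.83 and family 15 at -0.58, and these stayed below 0 without that mouse at -0.78 and -0.51. Family 17 was at 0.58 (0.26 without it), family 18 at 0.49 (0.32) and family 22 at 0.35 (-0.02), with 18 of 20 carriers of family 22 higher when all mice count. With Y-linked signal as a covariate family 17 was at 0.17 and family 18 at 0.28. Without the 4 arrays that stood apart family 17 turned to -0.05, while family 18 was at 0.30 and family 22 at 0.12. Family 8 flipped its sign under at least 1 scaling other than by the median. Double-deficient against wild-type kidneys gave 15 of 21 families above 0, or 1 of 21 when arrays were scaled by their median, and families 14, 18 and 19 flipped under at least 1 other scaling.

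From wild-type to Sting gt/gt kidneys 8 of 21 families had a median above 0, or 12 by quantile normalization, 2 under scaling by the median and 6 without Sting gt/gt replicate 4. The lowest were family 17 at -0.68 (-0.40 without that mouse) and family 3, the heavy subunits of amino acid carriers, at -0.58, and the highest were family 14, urea carriers, at 0.78 (0.43) and family 8, sodium-calcium exchangers, at 0.54 (-0.21). With Y-linked signal as a covariate family 17 was at -0.21 and family 14 at 0.47. Families 1, 2, 11, 12, 13, 15 and 20 flipped their sign under at least 1 scaling other than by the median. Between Sting gt/gt and double-deficient kidneys 14 of 21 families lay above 0, or 17 under scaling by the median, with such flips in families 1, 15 and 20, and the interaction was above 0 in 14 of 21, or 11 without Fcgr2b-/- replicate 1, with such flips in families 4, 6 and 13. In the interaction family 17 was at 1.25 with all mice and at 0.39 with the covariate. The pooled comparison had 11 of 21 above 0, or 8 without Sting gt/gt replicate 4 and 16 without the 4 arrays that stood apart, with such flips in families 9 and 12.

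**Figure D5:**
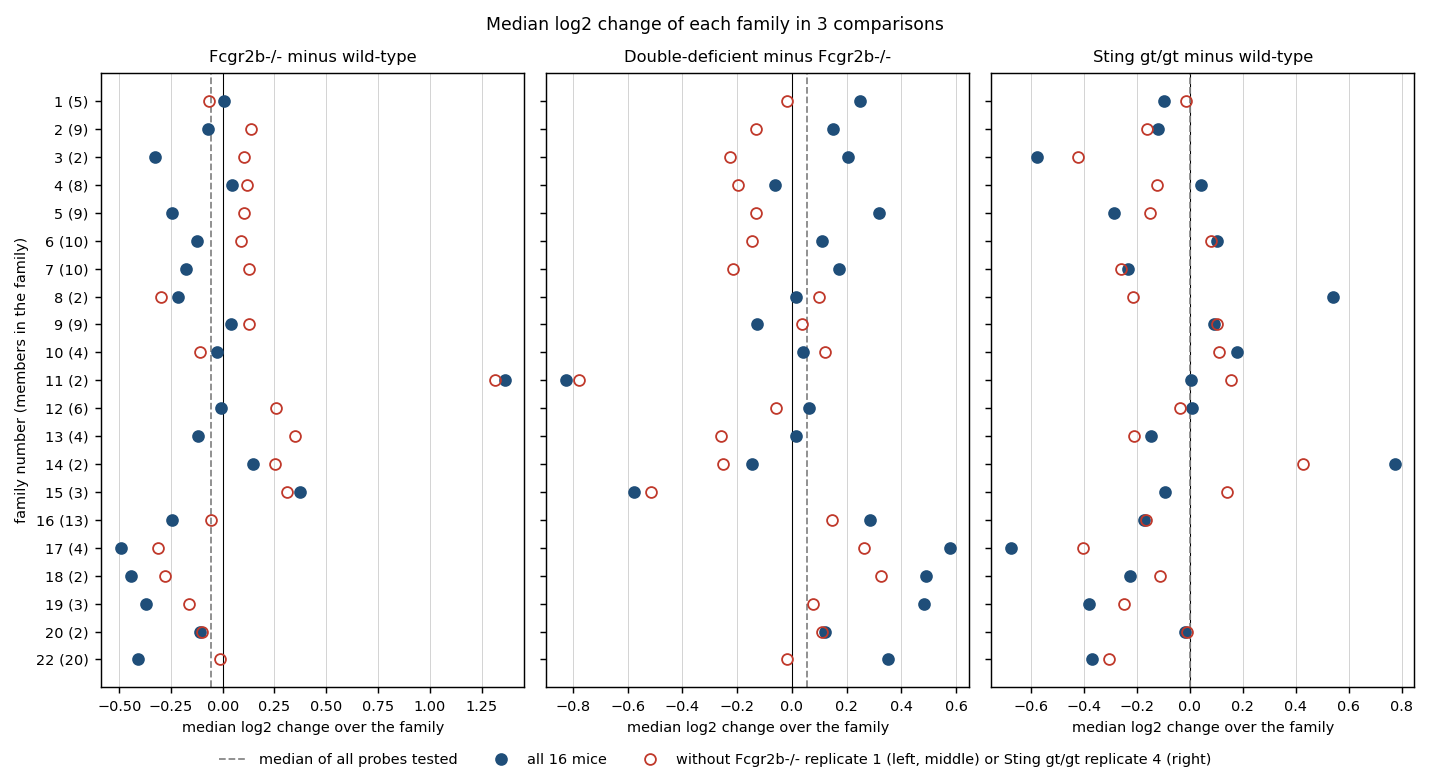
Median log2 change (across) of each of the 21 families (down) from wild-type to Fcgr2b-/-, from Fcgr2b-/- to double-deficient and from wild-type to Sting gt/gt kidneys, with all mice (filled) and without the 1 mouse that stands farthest apart (open). The dashed line is the median of all probes; the sign of several families flips under a scaling other than by the median, in the left panel families 12 and 13, in the middle family 8, and in the right families 1, 2, 11, 12, 13, 15 and 20.

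In each family 1 carrier had the widest range of genotype means, given here in log2. In family 1 it was Slc1a3 at 1.21, in family 2 Slc2a6 at 2.76, in family 4 Slc4a11 at 1.08, in family 5 Slc5a8 at 1.17 and in family 6 Slc6a19 at 1.27. In family 7 it was Slc7a13 at 2.70, in family 8 Slc8a3 at 1.14, in family 9 Slc9a9 at 1.09, in family 10 Slc10a2 at 1.23 and in family 11 Slc11a1 at 2.85. Families 12 to 17 had Slc12a5 at 1.14, Slc13a1 at 1.31, Slc14a1 at 0.82, Slc15a3 at 2.0, Slc16a3 at 2.0 and Slc17a1 at 2.08. Families 3, 18, 19, 20 and 22 had Slc3a1 at 0.70, Slc18a1 at 0.93, Slc19a1 at 0.72, Slc20a1 at 0.19 and Slc22a22 at 1.75.

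Sting gt/gt replicate 4 stood apart in single carriers as well. Slc8a3 read 6.14 there and 1.53 to 3.60 on the other 15 arrays, and Slc17a5, the sialic acid carrier of lysosomes, read 7.17 against 3.22 to 5.08, by the brighter of 2 probes that passed; these correlated at -0.0535 over the 16 arrays. Among genes outside the naming rule Itgam read 7.78 there against 4.17 to 5.82. The sign of the median of family 8 in Sting gt/gt kidneys rested on this mouse.

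Proteins that serve the carriers were read alongside. Of 16 listed transport partners, such as Pdzk1, the sodium pump subunits and the transcription factor Hnf4a, 15 could be tested and Tmem27 was not measured. From wild-type to Fcgr2b-/- kidneys 0 of 15 lay higher, with a median of -0.34, and 1 lay higher by quantile normalization; without Fcgr2b-/- replicate 1, 8 of 15 did, with a median of 0.00. Limma called 0 of the 15, with 1 lower at an unadjusted p under 0.05 (0.71% of all probes). From Fcgr2b-/- to double-deficient kidneys 14 of 15 lay higher, with a median of 0.39, or 4 of 15 without Fcgr2b-/- replicate 1, and limma called 0 with 0 at an unadjusted p under 0.05. Of 20 kidney carriers from families above 22 or with other names, 4 lay higher in Fcgr2b-/- than in wild-type kidneys, with a median of -0.40, and 17 lay higher in double-deficient than in Fcgr2b-/- kidneys, with a median of 0.28. Slc29a1 had the largest increase in the first, 0.31 (SE 0.28), and Slco1a1 the largest decrease, -2.58 (SE 3.33). Limma called 0 of the 20 in either, with 1 lower at an unadjusted p under 0.05 in the first (0.71%) and 0 in the second. The mean of the 20 against the wild-type mean was -0.01, 0.54, -0.27 and -0.26 in wild-type kidneys. It was -1.30, -0.06, 0.19 and -0.74 in Fcgr2b-/- and -0.25, 0.03, -0.35 and 0.30 in double-deficient kidneys. Fcgr2b-/- replicates 1 and 4 lay below the wild-type range, and replicates 2 and 3 lay inside it.

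At the edge of the naming rule, the members whose dimmest array came closest to the dimmest probe accepted there were Slc9a4, Slc2a6 and Slc16a8, at log2 distances of 0.13, 0.34 and 0.46. Just outside, Slc7a2, Slc12a8, Slc16a14, Slc18a2 and Slc22a27 reached 15 of 16 arrays. Slc7a2 spanned -4.36 to -2.42, Slc12a8 -4.38 to -2.85 and Slc18a2 -3.95 to -2.22, all dim, while Slc16a14 spanned -4.93 to -0.59 and Slc22a27 -6.28 to 1.13.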

How the data were processed

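Whole-kidney RNA of 16 mice, 4 of each of 4 genotypes, was measured on one-colour Agilent arrays. The authors extracted each spot's signal, in units of intensity, with Feature Extraction 11.0, which subtracts background; the deposited value table holds the authors' own normalized values in log2. No spot is saturated, and each array reads 28441 to 35564 probes well above background.

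Signals were averaged per probe, taken to log2 and lowered by the array's 75th percentile. Gene symbols come from the systematic names in the scanner files, and the probe with the highest mean stands for a gene. Of 36 members with more than 1 probe that passed, 7 have probes that differ in sign between Fcgr2b-/- and wild-type kidneys. Members and lists were chosen with earlier results of these data known. Genes were named by a rule: members called, members whose groups do not overlap, the 5 largest and smallest interactions, the lists by nephron segment and of markers written from general knowledge, the widest member of each family, and the extremes among transport partners and other carriers. Genes named outside it were chosen after their values were seen, and not every single-gene result of this rule is reported.

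The linear model of limma 3.58.1 in R 4.3.3, with statmod 1.5.0, gave each genotype a mean over 35628 probes well above background on at least 4 arrays, with Benjamini-Hochberg adjustment over these probes; a call needs an adjusted p under 0.05 and 2-fold. Python 3.11.15 with pandas 2.3.3, numpy 2.4.6, scipy 1.17.1, matplotlib 3.10.9 and biopython 1.88 did the rest. The pipeline was tested on simulated data.

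Most alternatives were planned before the fits were run, but earlier results of these data were already known. The 4 scalings named in the text are normexp background correction of the median signal with an offset of 50, quantile normalization, the median of each array in place of its 75th percentile, and the authors' table. The others were filters on dim probes, leaving out arrays, an exact Mann-Whitney test, moderation with trend, no fold threshold, the median probe per gene, and slide, replicate number, animal label or Y-linked signal in the model.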

Additional observations from a re-analysis of the deposited data

Results flagged for a closer look

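In groups of 4 mice, the highest or lowest value was set apart when its gap to the nearest other, divided by the group's range, passed the Dixon limit for 4 values. Of 132 groups looked at 14 have such a value. Some of these genes were named after their values were seen, so this count cannot be set against chance. Sting gt/gt replicate 3, the only mouse of its genotype that reads Y-linked RNA, accounts for Slc7a13 at 5.56, Slc7a12 at -2.96, Slc22a28 at 4.78, Slc22a30 at 6.10, Slc22a29 at -2.20, Xist at -6.55 and Eif2s3y at 0.61. Fcgr2b-/- replicate 3, the only such mouse of its genotype, accounts for Slc7a12 at -0.81 and Eif2s3y at 0.87. The others are Slc17a1 at -1.40 on Sting gt/gt replicate 4, Slc13a1 at 5.28 on double-deficient replicate 4, Slc9a8 at 4.69 on double-deficient replicate 2, and the median of the carriers against the wild-type mean at -0.36 on wild-type replicate 1 and at -0.31 on double-deficient replicate 2.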

How the results depend on the processing

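The results were recomputed under 34 alternatives, those that leave out 1 array each among them. Of the values for the carriers as a set, 465 kept their side of the threshold or moved by less than 1 SD, 6 pass the threshold where the reported ones do not and 1 moved. That SD, 0.303, is larger than every reported median change but the interaction's 0.35, so a median that changes sign can count as kept. The median from wild-type to Fcgr2b-/- kidneys, -0.20 with all mice and 0.08 without Fcgr2b-/- replicate 1, is counted so. The tally therefore does not show that the medians are stable. Of the values for single carriers 400 kept sign and side and 1 passes the threshold. Only 13 single-carrier values were followed this way. Leaving out 1 array at a time gives 0 to 1 carriers called between Fcgr2b-/- and wild-type kidneys, and the 1 is Slc11a1 at 3.33 without Fcgr2b-/- replicate 2, where its limma adjusted p is 0.0451; with all mice it is 0.216, and the cause was not tested.

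An exact Mann-Whitney test with 2-fold and no adjustment, whose smallest p for 4 against 4 mice is 0.0286, gives 3 carriers between Fcgr2b-/- and wild-type kidneys (Slc2a6, Slc11a1, Slc16a3; 0.404% of all probes), 1 between double-deficient and Fcgr2b-/- (Slc16a3; 0.115%), 2 between Sting gt/gt and wild-type (Slc13a1, Slc16a3; 0.357%), 2 between double-deficient and Sting gt/gt (Slc1a3, Slc16a1; 0.480%) and 2 in the pooled comparison (Slc2a6, Slc11a1; 0.592%); after adjustment it gives 0. These counts differ from 0 because the test as run has no adjustment. On the arrays with no Y-linked gene above background alone, a choice made after the data were seen, the interaction's median is 0.70 where it is 0.35 with all, that of Fcgr2b-/- against wild-type -0.47 for -0.20, that of double-deficient against Fcgr2b-/- 0.42 for 0.16 and that of Sting gt/gt against wild-type -0.27 for -0.12. The cause was not tested; the SD of the carriers' median between mice is 0.303.

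Carriers at an unadjusted p under 0.05 by limma number 4 to 6 higher and 0 to 8 lower between Fcgr2b-/- and wild-type kidneys over all alternatives, 0 to 13 and 0 to 7 between double-deficient and Fcgr2b-/-, 0 to 6 and 1 to 15 between Sting gt/gt and wild-type, 0 to 9 and 0 to 8 between double-deficient and Sting gt/gt, and 2 to 16 and 1 to 10 for the interaction. The share of all probes at this limma p is given only for the reported fit. Counts under the alternatives, the blocks below among them, therefore do not show whether carriers differ from the rest of the array. Some Fcgr2b-/- and double-deficient mice, and 2 wild-type mice, share the first number of the animal label. Taken as a random block (correlation 0.827), it gives the 13 higher and 7 lower between double-deficient and Fcgr2b-/- kidneys, with a smallest limma adjusted p of 0.206, where the reported fit gives 2, 4 and 1.0. Between Fcgr2b-/- and wild-type kidneys the same block gives 4 higher and 0 lower with 1.0, where the reported fit gives 4, 2 and 0.216, and in the pooled comparison 1.0 for 0.386; what the number stands for was not tested. Mice with the same replicate number correlate from -0.603 to 0.689 between genotypes. Between wild-type and Fcgr2b-/- mice these correlations are 0.689, 0.602, -0.072 and 0.489. Mice with unlike numbers were not correlated for reference, so whether the numbers pair mice was not tested. They were not taken as pairs, and a block by replicate number calls 0 carriers. Slc2a6, whose dimmest array lies 0.34 from the dimmest probe accepted, differs by 2.76 between Fcgr2b-/- and wild-type kidneys but by 1.80 with normexp background correction. That alternative also takes another signal column and adds an offset of 50, and which of these moves the value was not tested. Slide and Y-linked signal are unequal between genotypes, and with 4 mice each a fit that holds either keeps few mice per cell.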
